A study of Mus musculus with 8 samples.

Results

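The caspase genes described here are Casp1, Casp2, Casp4, Casp6, Casp8, Casp9 and Casp12, measured in mouse retina on 8 Affymetrix expression arrays. They were chosen by gene symbol, and every probe set (a group of short array probes for 1 transcript) whose single platform symbol is one of these names was taken. This gave 11 probe sets of 7 genes, out of 45037 probe sets and 18193 named genes on the array. The control group comprised 4 retinas dissected fresh, which the labels place at time 0 d. The other 4 retinas had been injected, which the labels class as a compound-based treatment. The sources used here name no compound, dose, route or interval after injection, no strain, age or genotype of the mice, and no sham injection. They do not say that the retinas came from separate animals, so p-values reflect only the spread among these samples, part of which may be technical.

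Caspases are cysteine proteases that cut proteins after aspartate. Initiator caspases are switched on when adaptor proteins bring them together, at death receptors for Casp8, at the apoptosome of Apaf1 and cytochrome c for Casp9 and at the PIDDosome for Casp2. Effector caspases such as Casp6 are activated by cleavage and cut structural and nuclear proteins. Inflammatory caspases such as Casp1 and Casp4 (also called Casp11 in the mouse) act in inflammasomes and open gasdermin pores, and Casp12 lies with them in the genome and has been linked to stress of the endoplasmic reticulum. In the retina, caspases are known from programmed death of ganglion cells and photoreceptors. Their activity is set largely by cleavage, which an array of RNA does not measure.

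Casp12 had the largest difference of the family, about 2.6-fold higher signal in injected retina at both of its probe sets. Casp8 was about 1.5-fold higher, and all 4 injected retinas lay above all 4 controls. Groups likewise did not overlap at 5.07% of all probe sets tested on the array. Casp1, Casp2, Casp6 and Casp9 differed by less than their SE at 5 tested probe sets. Casp4 was near the bottom of the signal range on all arrays but 1. No caspase passed the threshold of adjusted p under 0.05 in limma with Benjamini-Hochberg adjustment over the whole array (0 of 8 tested probe sets), so neither Casp12 nor Casp8 is called changed.

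The promoter windows of Casp12 and Casp8 are shown because these genes had the largest differences at tested caspase probe sets. They were picked after the values were seen. The selection rule covered only members whose groups did not overlap, which leaves out Casp12. Both printed windows are RefSeq sequence of the mouse build GRCm38.p6, the 250 bases before the annotated start, on the + strand. The window of Casp12 is chr9:5345226-5345475 and that of Casp8 is chr1:58802252-58802501. Capitals mark matches to TTCNNNGAA, the core of the gamma-activated site that STAT factors bind.
Casp12: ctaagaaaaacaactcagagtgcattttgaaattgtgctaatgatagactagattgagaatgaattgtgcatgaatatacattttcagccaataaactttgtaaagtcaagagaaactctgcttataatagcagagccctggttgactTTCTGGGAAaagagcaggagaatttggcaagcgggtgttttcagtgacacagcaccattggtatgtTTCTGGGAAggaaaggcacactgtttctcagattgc
Casp8: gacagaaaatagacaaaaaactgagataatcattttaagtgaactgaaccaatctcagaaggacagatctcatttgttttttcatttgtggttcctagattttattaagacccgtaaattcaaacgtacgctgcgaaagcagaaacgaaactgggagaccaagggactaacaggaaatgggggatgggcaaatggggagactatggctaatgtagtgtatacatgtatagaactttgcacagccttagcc

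The Casp12 window held 2 matches with identical letters, TTCTGGGAA, at 102 to 94 and at 36 to 28 bases before the start. Of 32851 promoter windows of this length, 7.02% held at least 1 match to TTCNNNGAA on either strand and 0.317% held 2 or more. The other 6 caspase genes had 0 matches. GAAANNGAAA, the core of the interferon-stimulated response element, was found on either strand in 0 windows of the 7 genes and in 2.98% of all windows. These matches describe letters in a window and say nothing of binding. In RefSeq, Casp1, Casp4 and Casp12 are direct neighbours in this order on chromosome 9, with no other annotated gene between them. The remaining genes lie on chromosomes 1 (Casp8), 3 (Casp6), 4 (Casp9) and 6 (Casp2).

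Levels are given as log2(intensity + 16) after quantile normalisation between arrays, and every difference is injected minus control on that scale, which understates changes of dim genes. A probe set was tested where its mean over all 8 arrays reached 8.50, the 40th percentile of all probe sets. Of the 11 caspase probe sets 8 passed, covering 6 genes, and those of Casp4, 1 of the 2 for Casp6 and 1 of the 3 for Casp9 did not. Of 27022 probe sets tested on the whole array, limma called 0% (0) at an adjusted p under 0.05, with 1889 at an unadjusted p under 0.05, and the unmoderated test also called 0. Injected replicate 3 stood apart, with a median rank correlation of 0.862 with the other arrays against 0.907 to 0.925 for the rest. Control replicate 2 had the highest pigment-cell signal, 1.98 log2 units above the control mean of 8 marker genes. Of the retinal markers on the array, all 6 rod, 5 cone, 4 bipolar, 5 ganglion cell and 6 Müller glia genes lay above the floor, and so did 5 of 6 amacrine and horizontal cell genes, with Onecut1 under it.

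**Figure D1:**
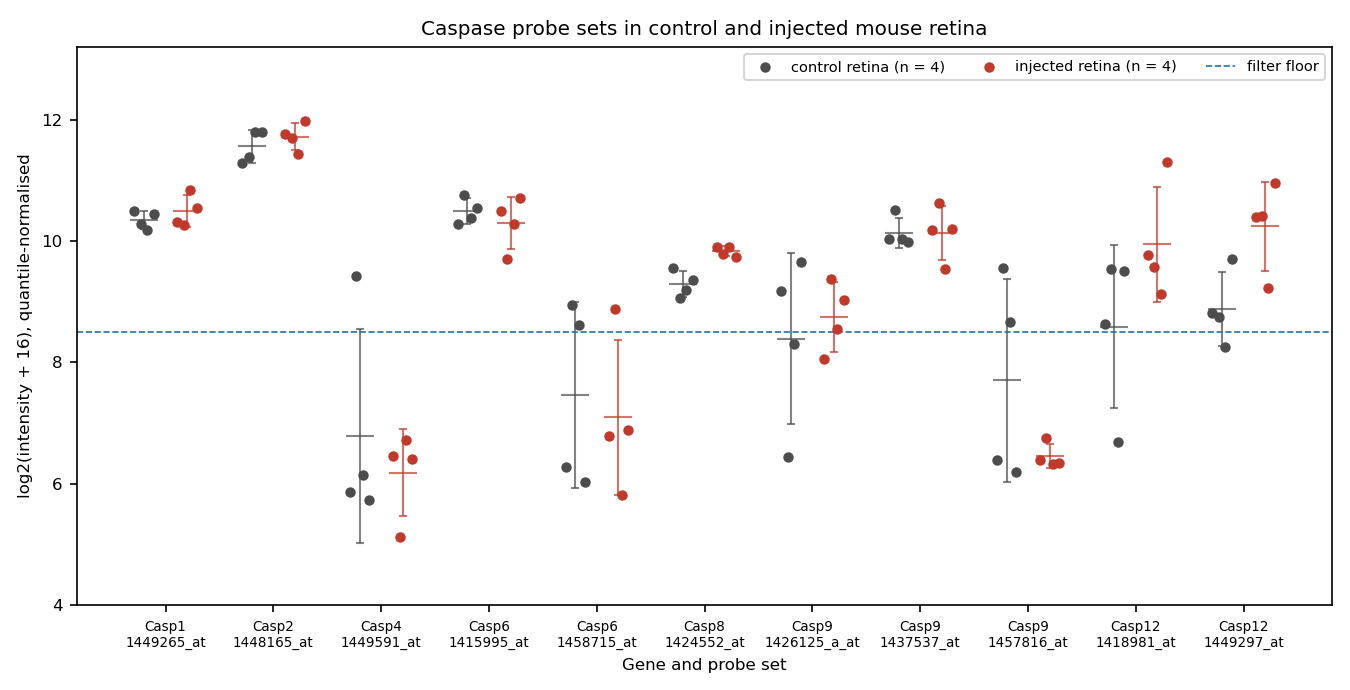
The 11 caspase probe sets (x axis, with gene and probe set name) are plotted as log2(intensity + 16) after quantile normalisation (y axis), with 1 point per array in grey for 4 control and red for 4 injected retinas, bars for mean ± SD and a dashed line at the filter floor of 8.50. The groups separate fully only at Casp8, both Casp12 probe sets lie mostly higher in injected retina, and Casp4 lies under the floor on all arrays but control replicate 2.

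Of the 8 tested caspase probe sets, 2 had an unadjusted p under 0.05, against 6.99% of all probe sets tested. The groups did not overlap at 1 of the 8, against 5.07% of all probe sets tested. Differences were positive at 6 and negative at 2, with a median of 0.26, against a median of -0.02 and 47.6% positive over the whole array. Of the 6, Casp9 1426125_a_at passed the filter only through its injected mean. With so few members, which share targets in 2 genes, these counts are a description only.

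Casp12 is an inflammatory-type caspase tied to the endoplasmic reticulum. Its brighter probe set, 1449297_at, read 8.81, 8.75, 8.26 and 9.71 in control replicates 1 to 4. The injected replicates 1 to 4 read 10.39, 10.42, 9.22 and 10.95. Of the injected retinas 3 lay above every control, and injected replicate 3, the array that stood apart, lay below control replicate 4, so the groups overlapped. The control mean was 8.88 ± 0.60 and the injected mean 10.24 ± 0.73 (SD, n = 4 each). The difference was 1.36 ± 0.41 (SE; 95% interval 0.44 to 2.28, not adjusted for the number of genes), a 2.57-fold ratio, with an adjusted p of 0.592 in limma. The exact two-sided permutation p over the 70 assignments of arrays to groups was 0.0571, where 4 against 4 allow no less than 0.0286.

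The second Casp12 probe set, 1418981_at, gave a difference of nearly the same size with more spread. It read 8.63, 9.54, 6.68 and 9.50 in control replicates 1 to 4. In injected replicates 1 to 4 it read 9.78, 9.57, 9.13 and 11.30. Again 3 injected arrays lay above every control and injected replicate 3 did not, and control replicate 3 was the lowest at both probe sets. The difference was 1.36 ± 0.67 (SE; adjusted p = 0.725 in limma; exact permutation p = 0.143), a 2.56-fold ratio. Without control replicate 3 it was 0.72, and without control replicate 2 it was 1.67. The 2 probe sets read the same RNA on the same arrays, so they are not independent samples. On the whole array, the differences of the probe sets stood at the 99.5th percentile of all 27022.

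Casp8 starts the death receptor pathway and also holds back necroptosis. Its only probe set, 1424552_at, read 9.55, 9.07, 9.19 and 9.37 in control replicates 1 to 4. Injected replicates 1 to 4 read 9.90, 9.79, 9.91 and 9.73. All 4 injected retinas lay above all 4 controls, and they lay close together, with an SD of 0.085 against 0.21 in control. The difference was 0.54 ± 0.18 (SE; 95% interval 0.14 to 0.93, not adjusted for the number of genes; adjusted p = 0.638 in limma), a 1.45-fold ratio. The exact two-sided permutation p was 0.0286, the smallest these 8 arrays can give, and 5.07% of all probe sets reached such a separation. In the deposited intensities, before quantile normalisation, the controls ran from 490 to 712 units and the injected retinas from 773 to 1124, again with no overlap. On that scale the array medians averaged 84 units higher in injected than in control retina.

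**Figure D2:**
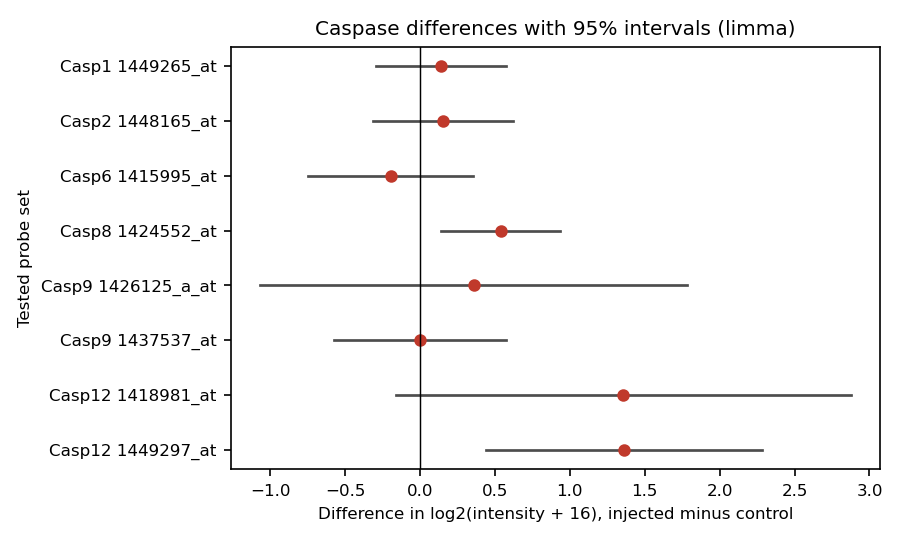
The 8 tested caspase probe sets (y axis) are shown with their difference in log2(intensity + 16), injected minus control (x axis), as a red point with the 95% interval from limma as a line. The intervals of Casp8 and of Casp12 1449297_at lie above 0, at 0.14 to 0.93 and 0.44 to 2.28, and the other 6 include 0; none of the intervals is adjusted for the number of genes.

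The size of the Casp8 difference depended little on any single array. With each array left out in turn it ran from 0.46 to 0.62. Casp12 1449297_at ran from 1.14 without injected replicate 4 to 1.75 without injected replicate 3. In none of these 8 fits did either pass the adjusted threshold in limma.

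**Figure D3:**
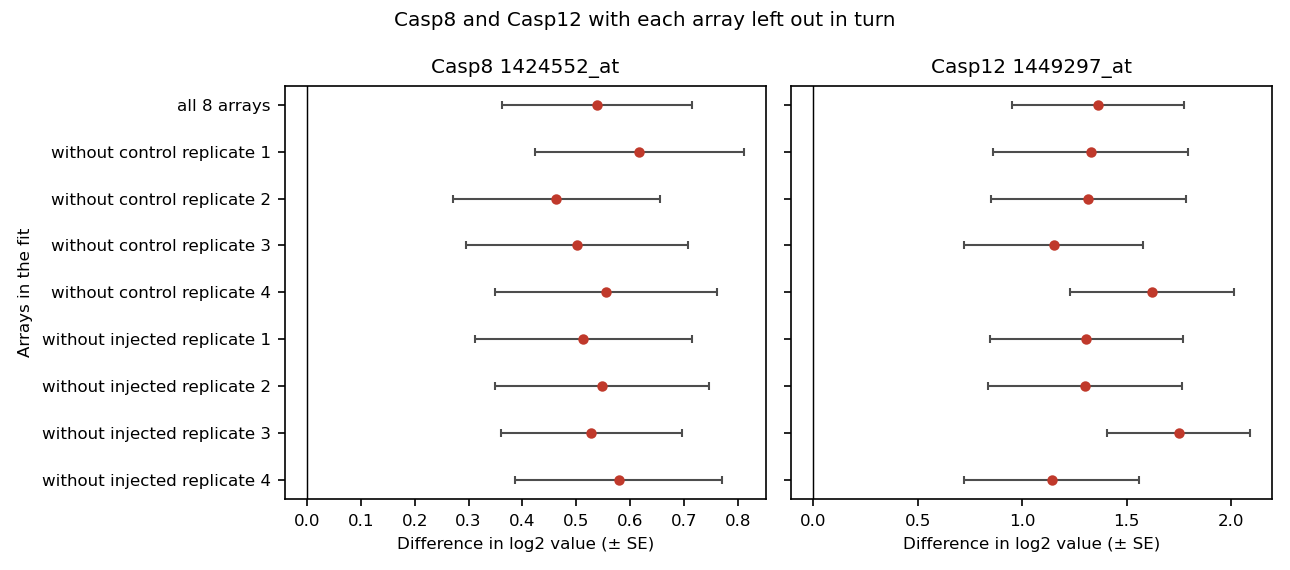
The difference in log2 value (x axis, ± SE) of Casp8 (left) and Casp12 1449297_at (right) is shown for the fit on all 8 arrays and with each array left out in turn (y axis). Every value is above 0, with Casp8 between 0.46 and 0.62 and Casp12 between 1.14 and 1.75; the x axes differ in scale.

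At the tested probe sets of the other initiators the groups overlapped. Casp9, which the apoptosome activates, has 3 probe sets. The brightest, 1437537_at, read 10.03, 10.51, 10.04 and 9.98 in control replicates 1 to 4. It read 10.18, 10.63, 9.55 and 10.20 in injected replicates 1 to 4. Its groups overlapped throughout, and the difference was -0.0015 ± 0.25 (SE; 95% interval -0.57 to 0.57; adjusted p = 0.999 in limma). A change of more than about 1.5-fold in either direction lies outside that interval.

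The second tested Casp9 probe set, 1426125_a_at, was dimmer and much more scattered. It ran from 6.45 to 9.66 in control and from 8.05 to 9.38 in injected retina, with a difference of 0.36 ± 0.63 (SE). Its control mean of 8.39 lay under the floor, and it passed the filter only through its injected mean of 8.75. It is kept in the counts of tested probe sets and its interval is drawn with theirs, but no p-value is given for it. Its direction rested on control replicate 2, the lowest array, and without it the difference was -0.29. The third, 1457816_at, was not tested. It read 6.33 to 6.75 in injected retina and 6.20 to 9.55 in control, where replicates 2 and 3 were at 9.55 and 8.67.

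Casp2, the caspase of the PIDDosome and the DNA damage response, had 1 probe set, 1448165_at. It read 11.28, 11.39, 11.80 and 11.79 in control and 11.77, 11.70, 11.43 and 11.98 in injected replicates 1 to 4. The groups overlapped, and the difference was 0.16 ± 0.21 (SE; 95% interval -0.31 to 0.62; adjusted p = 0.837 in limma).

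Casp6, an effector that cuts nuclear lamins and acts in axon pruning, was read at 1415995_at. Control replicates 1 to 4 were at 10.28, 10.76, 10.39 and 10.55, and injected replicates 1 to 4 at 10.50, 9.70, 10.28 and 10.71. Injected replicate 2 lay below all other arrays, and the remaining 3 lay within the control range. The difference was -0.20 ± 0.25 (SE; 95% interval -0.75 to 0.36; adjusted p = 0.827 in limma), and without injected replicate 2 it was 0.0018. A second Casp6 probe set, 1458715_at, lay under the floor on average and ran from 6.02 to 8.94 in control and 5.82 to 8.87 in injected retina.

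Casp1, which matures interleukin 1 beta and interleukin 18, was read at 1449265_at. Control replicates 1 to 4 were at 10.50, 10.28, 10.18 and 10.45. Injected replicates 1 to 4 were at 10.32, 10.27, 10.84 and 10.54. The highest value was that of injected replicate 3, and 2 injected retinas lay within the control range. The difference was 0.14 ± 0.19 (SE; 95% interval -0.29 to 0.57; adjusted p = 0.841 in limma), and without injected replicate 3 it was 0.025.

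Casp4, the sensor of intracellular lipopolysaccharide, was not tested because its only probe set, 1449591_at, lay below the floor. It read 5.86, 9.42, 6.14 and 5.73 in control and 6.46, 5.12, 6.73 and 6.41 in injected replicates 1 to 4. Control replicate 2 was above the floor and the other 7 arrays were not. So of the 3 neighbours on chromosome 9, Casp12 had higher signal in injected retina without passing the threshold, Casp1 differed by less than its SE and Casp4 was too dim to compare. Whether Casp12 and Casp1 differ in their response was not tested.

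By root mean square distance between profiles centred on their own mean over the 8 arrays, the genes most like Casp12 1449297_at among 12885 others were Gcnt1, Def6, Tubb6, Serping1 and Lrrc3b. Their distances were 0.40 to 0.48 log2 units, against a median of 0.96. Tubb6, a tubulin, differed by 1.36, Def6 by 1.19, Lrrc3b by 0.83, Serping1, the C1 inhibitor, by 0.76 and Gcnt1 by 0.75. The control mean of Def6, 8.05, lay under the floor, and it passed the filter only through its injected mean of 9.24. These genes are the nearest of many profiles on 8 arrays, and the group difference itself makes them alike.

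Microglia and macrophage markers had a higher summed signal in all 4 injected retinas than in any control. The summed signals of neutrophil and of lymphocyte markers overlapped between the groups. Of 14 microglia and macrophage genes 12 were tested, 11 had positive and 1 a negative difference, and 7 had an unadjusted p under 0.05, all of them positive, against 6.99% at that p and 47.6% positive over all probe sets tested. At 6 of the 12 the groups did not overlap, against 5.07% of all probe sets tested. None of the genes passed the adjusted threshold in limma. Their summed intensity ran from 38220 to 66142 units in control and from 77859 to 177599 in injected retina. None was at 0. Ptprc differed by 1.13 ± 0.28 and Csf1r by 1.26 ± 0.35 (SE) at the brightest probe set of each. The other tested Csf1r probe sets were at 0.64 and -0.26. P2ry12 differed by 0.01 ± 0.34, and Aif1 lay under the floor. The array highest for this list was injected replicate 3, which was the lowest injected array for Casp12 and the highest for Casp8 and Casp1. Of 6 neutrophil genes 1 was tested, and it passed the filter only through its injected mean. Their summed intensity ran from 951 to 1490 in control and from 1440 to 2104 in injected retina. Their mean log2 value, relative to the control mean, did not overlap. It ran from -0.21 to 0.24 in control and from 0.34 to 0.84 in injected retina, with most of these genes under the floor. Of 5 T and B cell genes on the array 1 was tested, Cd8a, with a difference of -0.40 at its brightest probe set and of 0.46 and 0.57 at the other tested ones. The summed intensity of these 5 ran from 1115 to 1460 in control and from 753 to 1489 in injected retina. In whole retina, more cells of a type and more RNA per cell cannot be told apart, and the part of immune cells in the caspase differences was not tested.

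**Figure D4:**
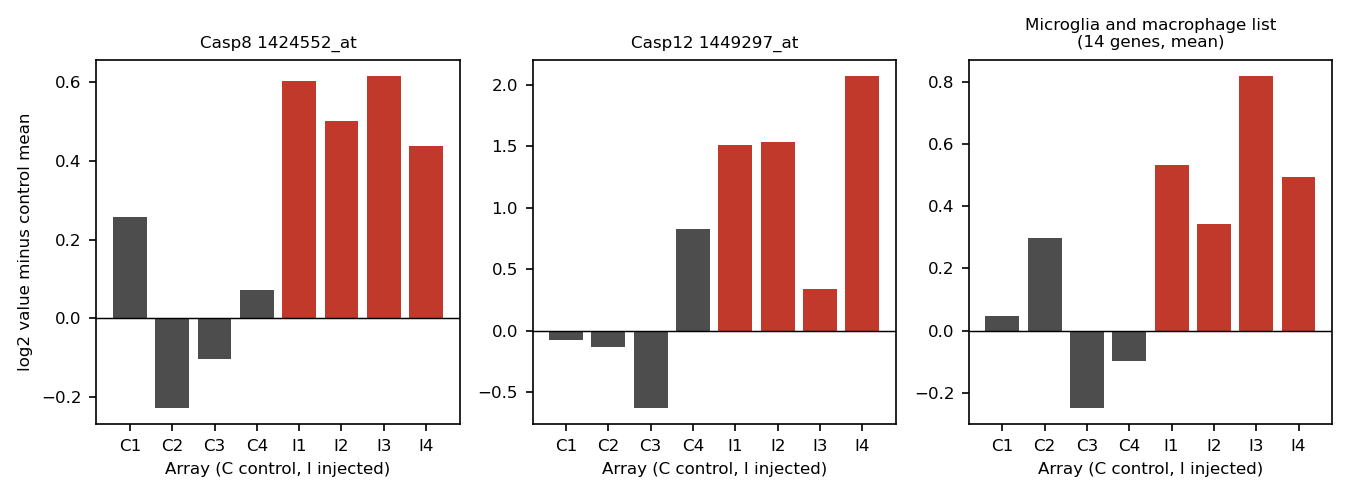
Bars give the log2 value minus the control mean (y axis) on each array (x axis, C1 to C4 control in grey, I1 to I4 injected in red) for Casp8, Casp12 1449297_at and the mean of 14 microglia and macrophage genes. All injected arrays are above the control mean in the 3 panels, but injected replicate 3 is the highest for the marker list, at 0.82, and the lowest injected array for Casp12; the y axes differ in scale.

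No marker gene of another cell type passed the adjusted threshold in limma. Summed signals of cone, ganglion cell, Müller glia and amacrine and horizontal cell markers were lower in all 4 injected retinas than in any control. A sum is set mostly by the brightest genes. Gene by gene, the groups did not overlap at 4 of 5 cone, 2 of 5 ganglion cell and 1 of 6 Müller glia genes. The same held at 2 of 5 tested amacrine and horizontal cell genes, against 5.07% of all probe sets tested. As a mean log2 value relative to the control mean, cones also separated, at -0.080 to 0.099 in control and -1.76 to -0.35 in injected retina. The ganglion cell, Müller glia and amacrine and horizontal cell lists overlapped on that measure. The 5 cone genes all had negative differences, where 47.6% of all probe sets tested were positive. Their summed intensity ran from 76866 to 84912 in control and 33454 to 74243 in injected retina. The 5 ganglion cell genes ran from 109714 to 119970 in control and 90913 to 107525 in injected retina. The 6 Müller glia genes ran from 158293 to 169563 in control and 129653 to 156377 in injected retina. The 6 amacrine and horizontal cell genes ran from 109685 to 124286 in control and 83468 to 102900 in injected retina. Rod, bipolar, endothelial, lens, pigment and blood cell markers overlapped between the groups. The 6 rod genes ran from 198279 to 210535 in control and 127733 to 216238 in injected retina. The 8 lens genes ran from 1268 to 15100 in control and 3714 to 77367 in injected retina, with injected replicate 2 the highest. The 8 pigment-cell genes ran from 76802 to 343182 in control and 34557 to 96451 in injected retina. The part of these cells in the caspase values was not tested.

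Genes that act with the caspases were read at the probe set of highest mean, from lists chosen by role. In limma 0 genes of these lists passed the adjusted threshold, against 0% of the array. Of 17 inflammasome and pyroptosis genes, which feed or follow Casp1 and Casp4, 10 were tested. Of these 9 were positive and 1 negative, with a median of 0.26 against -0.02 over the array, and 0 had an unadjusted p under 0.05. The sensor Nlrp3 differed by 0.01 ± 0.27 and the adaptor Pycard by 0.18 ± 0.20 (SE). The Casp1 substrates Il1b and Il18 differed by 0.47 ± 0.30 and 0.25 ± 0.23. Nek7, a kinase that licenses Nlrp3, differed by 0.40 ± 0.20, but its 3 probe sets ran from -0.35 to 0.74. Naip6, a sensor of bacterial proteins from a family of close copies, differed by 0.62 ± 0.44 and was at 0.16 without injected replicate 3. Gsdmd, the pore protein that Casp1 and Casp4 cut, lay under the floor with a control mean of 7.04 ± 0.52 and an injected mean of 7.44 ± 0.082 (SD, n = 4 each).

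The genes that receive the Casp1 products went both ways. Of 11 genes for interleukin 1 family receptors and signalling 7 were tested, 5 positive and 2 negative, with a median of 0.19. Il18bp, a decoy that binds interleukin 18, is 1 of the 5, but its control mean lay under the floor and it passed the filter only through the injected group. It ran from 5.73 to 9.43 in control and from 8.80 to 10.01 in injected retina, with means of 7.90 ± 1.75 and 9.52 ± 0.51 (SD, n = 4 each). Il1r1, the signalling receptor for interleukin 1, differed by -1.08 ± 0.56. That difference came mostly from injected replicates 3 and 4 at 7.34 and 8.43, and without replicate 3 it was -0.54. The adaptor Myd88 differed by 0.34 ± 0.23.

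The partners of Casp8 went both ways, with more negative than positive differences. Of 16 death receptor and necroptosis genes 7 were tested, 2 positive and 5 negative. Their median was -0.12, against -0.02 and 47.6% positive over the array. Tradd, an adaptor of the tumour necrosis factor receptor, was named for its small p and differed by 0.80 ± 0.31 (SE). It was the 1 gene of the 7 with an unadjusted p under 0.05 in limma, against 6.99% of all probe sets tested. Without injected replicate 3 its difference was 0.52. The receptor Tnfrsf1a differed by 0.33 ± 0.24. Fadd, which recruits Casp8, differed by -0.23 ± 0.33, and Cflar, an inactive relative of Casp8 that restrains it, by -0.11 ± 0.24. Fadd and Cflar turned positive without injected replicate 3, at 0.067 and 0.11. The necroptosis genes Ripk3 and Mlkl lay under the floor, with injected means of 7.06 and 5.88. Fas lay under it on average, at 8.83 ± 0.30 in control and 7.69 ± 1.20 in injected retina. Tnf, named after its values were seen, also lay under it on average. Tnf read 6.23, 5.54, 8.20 and 5.81 in control and 8.26, 7.78, 9.29 and 9.14 in injected replicates 1 to 4.

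The partners of Casp9 had mostly negative differences. Of 12 apoptosome, PIDDosome and inhibitor genes 9 were tested, 2 positive and 7 negative, and 0 had an unadjusted p under 0.05. Their median was -0.23, against -0.02 and 47.6% positive over the array. Apaf1, the scaffold of the apoptosome, differed by -0.43 ± 0.40 (SE), and without injected replicate 3 it was at -0.0050. Cycs, cytochrome c, differed by -0.02 ± 0.17. Diablo, which relieves caspase inhibition, differed by 0.26 ± 0.20, and the inhibitor Birc3 by -0.66 ± 0.41.

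Xiap, which binds and blocks caspases directly, was negative at all 7 of its probe sets, from -1.16 to -0.17. The brightest, 1437533_at, differed by -0.44 ± 0.37 (SE), nearly all of it from injected replicate 3, and was at -0.02 without it. Another probe set, 1450231_a_at, named after its values were seen, did not depend on that array. It read 9.66, 9.63, 9.85 and 10.35 in control and 8.71, 8.98, 8.75 and 8.40 in injected replicates 1 to 4. All 4 injected values lay below all controls, where 5.07% of all probe sets tested had groups that did not overlap. The difference was -1.16 ± 0.22 (SE; adjusted p = 0.37 in limma), with a range of -1.24 to -0.99 with each array left out. The other 6 Xiap probe sets had smaller differences, from -0.55 to -0.17.

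Substrates and endoplasmic reticulum genes had medians near that of the whole array. Of 14 caspase substrates 13 were tested, 7 positive and 6 negative, with a median of 0.09. Parp1, a DNA repair enzyme cut in apoptosis, differed by 0.46 ± 0.46 (SE) and was at -0.055 without injected replicate 3. Of 12 endoplasmic reticulum stress genes linked to Casp12, 11 were tested, 6 positive and 5 negative, with a median of 0.10. The stress sensor Ern1 differed by 0.28 ± 0.26, the stress-induced factor Ddit3 by 0.10 ± 0.29, the chaperone Hspa5 by -0.21 ± 0.24 and Hsp90b1 by -0.75 ± 0.39. Without injected replicate 3, Hsp90b1 was at -0.33 and Hspa5 at -0.0005. Over all tested probe sets, Hspa5 ran from -0.21 to 0.54 (3 probe sets) and Hsp90b1 from -0.75 to -0.02 (2 probe sets). Casp14, a caspase of the skin, differed by 0.67 ± 0.37 at a probe set that can bind related transcripts, and its other probe set lay under the floor.

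**Figure D5:**
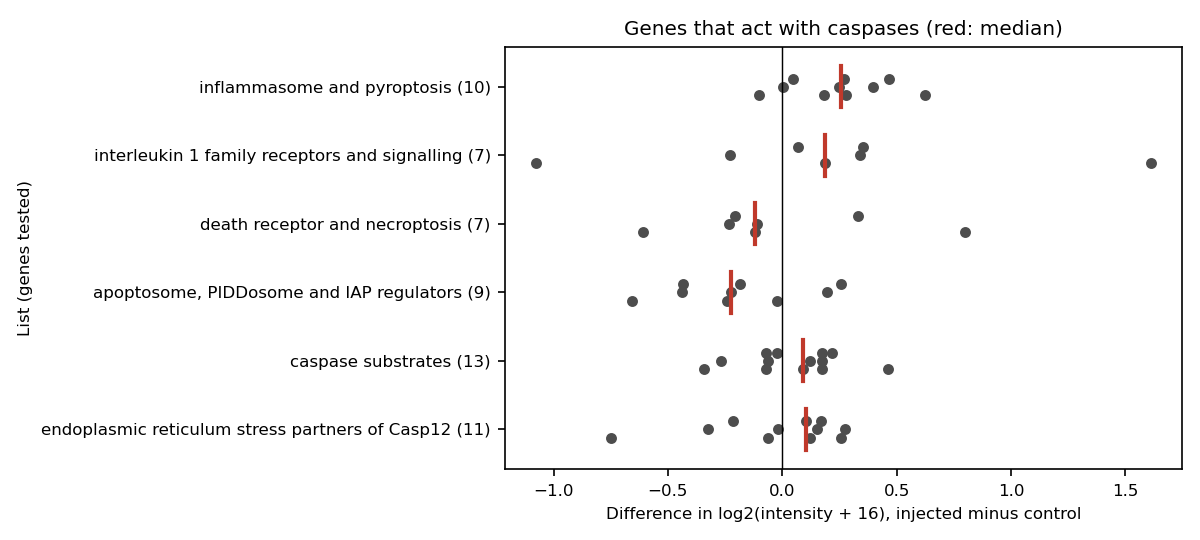
Each point is a gene of 1 of 6 lists (y axis, with the number of genes tested) at its difference in log2(intensity + 16), injected minus control (x axis), and red lines mark the list medians. Medians lie between -0.23 for apoptosome, PIDDosome and inhibitor genes and 0.26 for inflammasome and pyroptosis genes, and no gene passed the adjusted threshold.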

How the data were processed

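The deposited table gives 1 linear intensity per probe set and array, scaled by the authors to a common trimmed mean of 2500 (from the values, 2% left out at each end). The software is not given in the sources used here. The 64 array control probe sets were left out. Array medians differed 1.55-fold (495 to 766), so the deposited intensities were quantile-normalised with limma 3.58.1 in R 4.3.3 and log2-transformed after adding 16. The scaling hides changes in total RNA. Probe sets at or above the 40th percentile of mean signal were tested with lmFit and eBayes (3.3 prior degrees of freedom), Benjamini-Hochberg over 27022 and a threshold of 0.05. The fit was tested on simulated data. Detection calls were not used. Genes were named by platform symbol: 34945 probe sets had 1, 932 several and 9160 none. Members and lists were chosen with earlier results of these data known. The rule names every caspase probe set, fixed partners and up to 2 further genes per list by smallest p, and the text gives some of these. Array weights used statmod 1.5.0. Promoters came from RefSeq (32851 windows, all 7 genes matched). Figures used matplotlib 3.10.9 in Python 3.11.15.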

Additional observations from a re-analysis of the deposited data

Results flagged for a closer look

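In 6 of 70 groups of 4 arrays checked, 8.57%, 1 array stood far from the other 3, where chance gives about 1 in 20. Casp4 1449591_at was at 9.42 in control replicate 2, against 5.73 to 6.14 in the other controls. Casp9 1437537_at was at 10.51 in the same array, against 9.98 to 10.04. Casp9 1457816_at was at 6.75 in injected replicate 2, against 6.33 to 6.40. Diablo was at 12.22 and Xiap 1437533_at at 12.91 in injected replicate 3, against 11.61 to 11.70 and 14.53 to 14.65. Myd88 was at 12.34 in injected replicate 4, against 11.59 to 11.68.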

How the results depend on the processing

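Array number and dim signal limit these results. The count of caspase probe sets past the adjusted threshold was 0 under all 18 alternatives, and Casp8 and Casp12 stayed positive in each, with adjusted p from 0.439 to 0.889 for Casp8 and 0.274 to 0.889 for Casp12 1449297_at. Casp9 1426125_a_at lay below the filter, and was not tested, under 3 of them. Over the whole array 0 probe sets were called, 8 with array weights, and 0 to 34 with 1 array left out (34 without injected replicate 4). Labels number both groups, but deviations of same-numbered arrays correlated only at -0.029 to 0.084; with the replicate block 0 probe sets were called and Casp12 1449297_at had an adjusted p of 0.694. Centring arrays on their medians moved the median of all tested probe sets to -0.15, and there Casp8 was at 0.51, Casp1 at -0.0006, Casp2 at -0.051 and Ddit3 at -0.083. Under the deposited scaling the array medians averaged 0.19 log2 units higher in injected retina. There Casp8 was at 0.70, Casp12 1449297_at at 1.54 with no overlap, Casp9 1437537_at at 0.13 and Cycs at 0.077. With a pseudocount of 64 Casp9 1437537_at was at 0.0001. With array weights it was at 0.20, Cflar at 0.043, Fadd at 0.094 and Ddit3 at -0.074. With control replicate 2 and injected replicate 3 both left out, Casp1 was at -0.0013, Casp9 1426125_a_at at -0.23, Casp9 1437537_at at 0.33, Apaf1 at 0.046, Parp1 at -0.12, Cflar at 0.13 and Fadd at 0.079. With 1 array left out, Casp6 ran from -0.34 to 0.0018, Casp9 1426125_a_at from -0.29 to 0.59, Casp9 1437537_at from -0.17 to 0.20, Cycs from -0.096 to 0.026, Parp1 from -0.055 to 0.76, Cflar from -0.21 to 0.11, Fadd from -0.47 to 0.067, Ddit3 from -0.047 to 0.30 and Nlrp3 from -0.15 to 0.18. The cause of these turns of sign was not tested.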
